A study of Mus musculus with 18 samples.

Results

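The genes described here are 7 cyclic nucleotide phosphodiesterases, Pde2a, Pde3b, Pde4a, Pde4b, Pde4d, Pde5a and Pde7a, out of 22180 genes that had a probe set with 1 gene symbol on the array. Their probe sets were those whose only symbol was one of these names, 8 in all. Where a gene had several, which was so for Pde7a alone, the probe set was selected on its mean brightness over the 18 arrays. The arrays, of the Affymetrix MoGene-2_0 design, measured RNA of invariant natural killer T (iNKT) cells, T cells that recognise lipids on CD1d, sorted from the thymus of C57BL/6 mice. There were 6 groups of 3 arrays: Mst1KO cells, from mice whose Cd4-driven Cre recombinase deletes floxed Mst1 (gene symbol Stk4, a Hippo pathway kinase), and WT cells, each at the stages S1, S2 and S3. All sorted cells bound the CD1d tetramer and lacked CD24. S1 cells lacked CD44 and NK1.1, S2 cells had CD44 without NK1.1, and S3 cells had both. Cre under the Cd4 promoter acts in every T cell that has passed a Cd4-expressing stage, not in iNKT cells alone, and the labels do not say whether WT mice carried Cre or whether cells of several mice were pooled. The labels give no mouse for a replicate number. The spread behind each p-value is that of arrays within groups, as 1 estimate per gene shared by all 6 groups, and may in part be technical.

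Phosphodiesterases break down cyclic AMP (cAMP) and cyclic GMP (cGMP), the second messengers made by adenylyl and guanylyl cyclases. In T cells cAMP acts mainly through protein kinase A, which dampens signalling from the T cell receptor, and the PDE3, PDE4 and PDE7 families are the best known cAMP-degrading enzymes there. PDE5A is specific for cGMP and is the target of sildenafil, PDE2A hydrolyses both messengers and is stimulated by cGMP, and PDE3B hydrolyses cAMP and is inhibited by cGMP. PDE4A, PDE4B and PDE4D are among the cAMP-specific, rolipram-sensitive enzymes, and PDE7A is a cAMP-specific enzyme of high affinity.

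Values are log2 expression as deposited, differences are log2 differences ± SE, and group levels are means ± SD (n = 3 arrays a group). A gene was called changed at an adjusted p under 0.05 in limma, adjusted over the 13034 genes tested. The members were chosen by name with earlier results of these data known, so their p-values describe them and are not independent support. Array medians lay between 4.81 and 4.93, and arrays of a group correlated at r = 0.976 to 0.986 across probe sets. Stk4, the deleted gene, read 7.61 ± 0.05, 7.48 ± 0.07 and 7.66 ± 0.09 over the 3 stages of Mst1KO, against 7.90 ± 0.20, 7.83 ± 0.09 and 8.04 ± 0.21 in WT, with arrays that did not overlap at any stage and no call (adjusted p = 0.34, 0.173 and 0.0767). A whole-transcript probe set can read parts that a conditional deletion leaves in place, so this checks the labels only weakly. Of the 7 T and iNKT cell markers, 6 were above the array median on all 18 arrays. Each sample is a bulk sort, in which fewer cells of a type and less RNA per cell cannot be told apart.

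Pde5a, the cGMP-specific enzyme, had the largest genotype difference of the members. At S3 its arrays read 6.65, 6.78 and 6.94 in Mst1KO, against 3.39, 4.32 and 4.71 in WT. Every Mst1KO array lay above every WT array, and the Mst1KO level was higher by 2.65 ± 0.25, or 6.28-fold (95% interval of the log2 difference 2.13 to 3.17, limma adjusted p = 8.16e-06, rank 13 by p among all genes). The WT S3 arrays were all below their own array's median, while the other 15 arrays were above it, so the fold is taken against a level low on the array. The SE and interval rest on 1 spread shared by all 6 groups. The SD was 0.68 in WT S3 and 0.15 in Mst1KO S3, so both can be too narrow here. The call held in each of 28 alternative fits. Leaving out each array in turn gave 2.28 to 2.93, the lowest without WT S3 replicate 3, the dimmest array.

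At the earlier stages the genotypes were closer. The S1 arrays read 5.18, 5.32 and 5.58 in Mst1KO, against 5.63, 5.80 and 6.06 in WT, a difference of -0.47 ± 0.25 (95% interval -0.99 to 0.05, adjusted p = 0.505) with arrays that did not overlap. At S2 they read 7.23, 7.42 and 7.53 in Mst1KO, against 6.88, 6.92 and 7.43 in WT, which overlapped (0.31 ± 0.25, 95% interval -0.21 to 0.83, adjusted p = 0.65). Neither difference was called, and the S2 interval holds values in both directions.

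**Figure D1:**
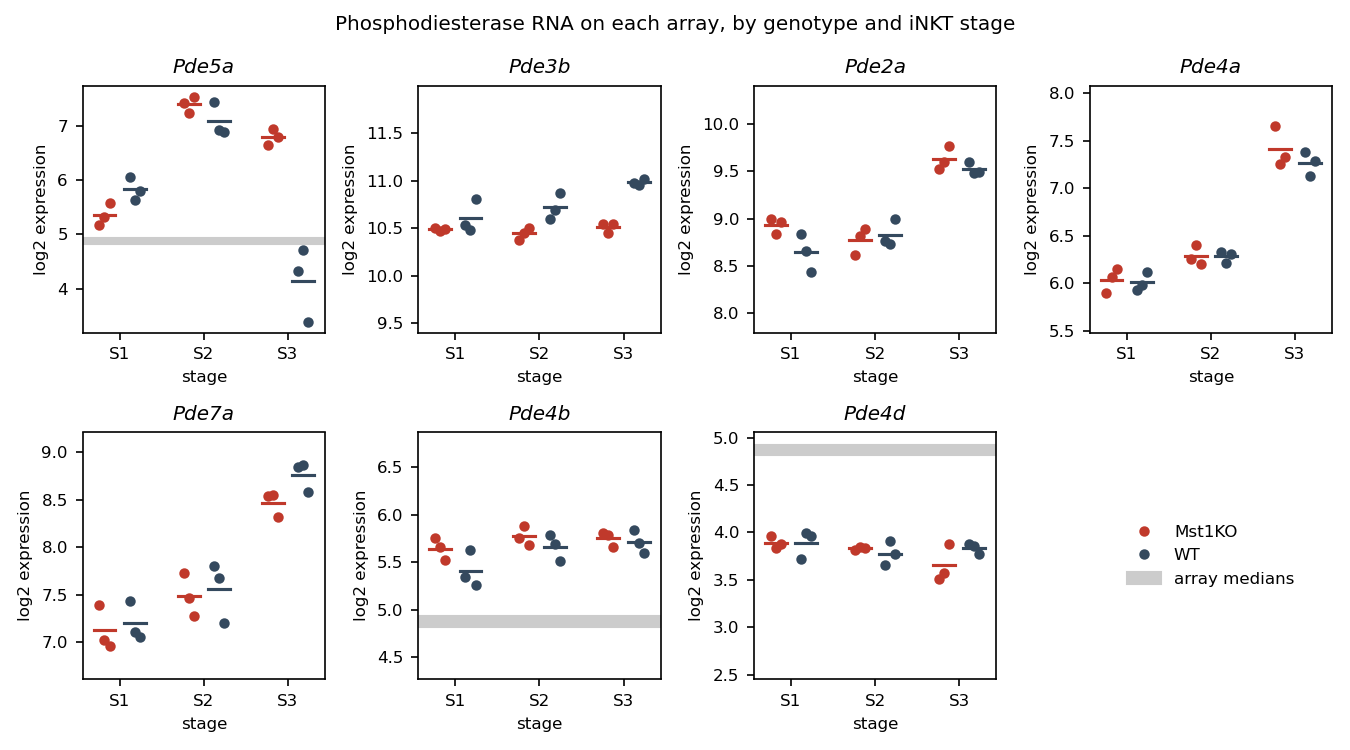
Log2 expression (vertical axes) of the 7 phosphodiesterases on each of the 18 arrays by stage (horizontal axes), with Mst1KO left of WT in each stage, points for arrays, lines for group means and a grey band for the range of array medians where it falls in the panel. Pde5a peaks at S2 in both genotypes, and at S3 the Mst1KO arrays stay between 6.65 and 6.94 while the WT arrays lie between 3.39 and 4.71.

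Across stages Pde5a rose from S1 to S2 in both genotypes. In Mst1KO the S2 mean was 7.39 ± 0.15 against 5.36 ± 0.20 at S1, a rise of 2.03 ± 0.25 or 4.09-fold (adjusted p = 6.12e-05). In WT it was 7.08 ± 0.30 against 5.83 ± 0.22, a rise of 1.25 ± 0.25 or 2.38-fold (adjusted p = 0.00642). From S2 to S3 the genotypes parted. WT cells were at 4.14 ± 0.68 at S3, against 7.08 at S2, and Pde5a fell by 2.94 on the log2 scale (SE 0.25, 7.66-fold, adjusted p = 2.2e-07). Mst1KO cells were at 6.79 ± 0.15 at S3, against 7.39 at S2, a difference of -0.60 ± 0.25 that was not called (adjusted p = 0.109, 95% interval -1.12 to -0.08), although the arrays of the stages did not overlap. This last difference was called in a fit on only the groups compared (adjusted p = 0.0141) and without WT S3 replicate 3 (adjusted p = 0.0194). Its SE of 0.25 is shared by all 6 groups, among which WT S3 had the widest spread (SD 0.68), against 0.15 in each of the 2 Mst1KO groups compared. For the WT fall, which involves WT S3, the same SE can be too small. Both stage comparisons of a genotype share the S2 arrays, so a high S2 array moves them in opposite directions.

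The change from S2 to S3 differed between genotypes. Mst1KO exceeded WT in it by 2.34 ± 0.35 (interaction test, 95% interval 1.60 to 3.07, adjusted p = 0.00636), and 48 genes, 0.368% of all tested, passed this test, 0.261% of all tested in the direction of Pde5a. Of the 6 members tested Pde5a was the only one to do so. This SE and interval also rest on the shared spread, and can be too narrow because WT S3 enters the test. Leaving out single arrays gave 1.96 to 2.62 with the call kept each time, the lowest without WT S3 replicate 3, and the call was lost with an added threshold of 1.5-fold (adjusted p = 0.108). The S1 to S2 change differed by 0.78 ± 0.35, which was not called (adjusted p = 0.705). This Mst1KO minus WT interaction for S1 to S2 called 0 of 6 members with limma, with 2 at an unadjusted p under 0.05, where 0.0153% of all genes were called.

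Ordered by their means, the groups ran from Mst1KO S2 (7.39) through WT S2 (7.08), Mst1KO S3 (6.79), WT S1 (5.83) and Mst1KO S1 (5.36) to WT S3 (4.14). Among neighbours in this order, Mst1KO S2 overlapped WT S2 and WT S2 overlapped Mst1KO S3. The arrays of the other neighbouring pairs were separate. In WT, then, S3 was the lowest stage, and in Mst1KO it was S1.

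The tested genes whose levels followed Pde5a most closely over the 18 arrays were Blk, a Src family kinase (Pearson r = 0.924), Crmp1 (0.896), the integrin-associated protein gene Cd47 (0.892), Coro2b (0.882) and S100a10 (0.881). These r values describe 18 arrays that fall into 6 groups, share the sorted stages, and were chosen as the highest of all genes.

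Pde5a is also known from smooth muscle and platelets, and markers of both were read beside it. The 6 smooth muscle and fibroblast markers summed to log2 levels of 31.6 to 32.2 in Mst1KO S3, against 32.3 to 32.9 in WT S3. Of the 5 that passed the filter limma called 0 at S3, with 0 at an unadjusted p under 0.05, and Tagln was below the array median on all 18 arrays. The smooth muscle actin gene Acta2 differed by 0.03 (95% interval -0.20 to 0.26). The 4 measured platelet and red cell markers summed to 19.7 to 20.4 in Mst1KO S3, against 19.8 to 20.2 in WT S3, and the platelet genes Pf4 and Ppbp were below the array median on every array. The 5 endothelial markers summed to 26.1 to 26.4 in Mst1KO S3, against 25.4 to 25.9 in WT S3, without overlap and in the direction of Pde5a. Of the 3 that passed the filter limma called 0 there, with 1 at an unadjusted p under 0.05, the adhesion molecule gene Pecam1 (0.47 ± 0.16, adjusted p = 0.134). The others of these, Cdh5 and Kdr, differed in opposite directions, by 0.23 and -0.14. Tek was below the array median on all 18 arrays and 1 of the 5 was above it on all. The part of these cells in the Pde5a differences was not tested.

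Macrophage and dendritic cell markers did move between the groups. Their 10 markers summed to log2 levels of 57.3 to 61.2 in Mst1KO S3, against 55.6 to 57.0 in WT S3, and 1 of 8 tested was called higher in Mst1KO, the complement gene C1qb (0.94 ± 0.23, limma adjusted p = 0.0364). At S2 the sums were 54.2 to 55.6 in Mst1KO, against 50.9 to 51.9 in WT, and again 1 of 8 tested was called higher in Mst1KO. At each of these 2 stages 4 of 8 had an unadjusted limma p under 0.05. At S1 the sums were 48.4 to 49.9 in Mst1KO, against 47.8 to 49.8 in WT. From S1 to S2, where Pde5a rose, this sum was thus higher at S2 in both genotypes, with 5 of 8 tested markers called higher in Mst1KO and 0 of 8 in WT (limma, with 3 at an unadjusted p under 0.05). From S2 to S3 in WT, where Pde5a fell, the sum was higher at S3. Only 2 of the 10 markers were above the array median on all arrays, and their part in the phosphodiesterase differences was not tested.

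The annotated start of Pde5a is shown because this gene carries the largest difference. The RefSeq window (GRCm38.p6), 250 bases before to 50 bases after the start, lies at chr3:122728908-122729207 on the plus strand. Windows were available for 5 of the 7 members, 14 in all, and not for Pde3b and Pde7a. Each was searched on both strands for the cAMP response element TGACGTCA, its shorter core TGACG (contained in the longer one), the TEAD core GGAATG and the T-box core GGTGTGA, a choice made with the values known. The window of Pde5a holds none of these letters, and its GC content is 66.3%, where the median of 32851 windows is 52.7%.
Pde5a: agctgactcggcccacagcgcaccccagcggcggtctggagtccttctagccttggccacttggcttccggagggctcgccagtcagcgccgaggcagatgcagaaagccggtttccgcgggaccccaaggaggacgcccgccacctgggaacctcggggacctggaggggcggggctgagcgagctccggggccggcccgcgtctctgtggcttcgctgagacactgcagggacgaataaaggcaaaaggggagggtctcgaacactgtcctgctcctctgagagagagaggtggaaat

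Pde3b, the cGMP-inhibited cAMP enzyme, moved the other way at S3. Its arrays read 10.45, 10.54 and 10.55 in Mst1KO, against 10.95, 10.97 and 11.02 in WT. The groups did not overlap, and Pde3b was lower in Mst1KO, with a difference of -0.47 ± 0.10, or 1.38-fold (95% interval -0.67 to -0.27, limma adjusted p = 0.0112). The call was lost without Mst1KO S3 replicate 2 (adjusted p = 0.0541) and with an added threshold of 1.5-fold, which this difference does not reach, and held in 26 of 28 alternative fits. At S2 the arrays also did not overlap, at 10.38, 10.45 and 10.50 in Mst1KO, against 10.60, 10.69 and 10.87 in WT, without a call (-0.28 ± 0.10, adjusted p = 0.19). The S1 arrays, at 10.47, 10.49 and 10.50 in Mst1KO, against 10.48, 10.53 and 10.81 in WT, overlapped (-0.12 ± 0.10, adjusted p = 0.698).

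The stage pattern of Pde3b was shallow. In Mst1KO the means were 10.49, 10.44 and 10.51 at S1, S2 and S3, which all overlapped their neighbours. In WT they were 10.61 ± 0.18, 10.72 ± 0.14 and 10.98 ± 0.04. The WT difference of S3 from S2, 0.26 ± 0.10, was not called (adjusted p = 0.0585) but was called in 6 of 28 alternative fits. The difference of the S2 to S3 changes between genotypes was -0.19 ± 0.13 (adjusted p = 0.642), so the parting of the genotypes over the stages was not called for this gene. Gzma, a cytotoxic granule protease (r = 0.899), and 2900026A02Rik (0.894) followed it most closely over the 18 arrays.

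In all, 2 of the 6 members tested were called between Mst1KO and WT at S3, where 3.4% of all genes were called. Each direction held 1 member, Pde5a higher (2.35% of all genes) and Pde3b lower (1.05% of all genes), although with quantile normalization repeated the 306 higher and 137 lower calls over all genes became 230 and 173. The arrays did not overlap for 3 of the 6, against 23% of all genes. At S1 limma called 0 of 6, with 1 at an unadjusted p under 0.05 (0.33% of all genes called), and at S2 likewise 0 of 6 with 1 (1.17% of all genes). The arrays did not overlap for 1 of 6 at S1 and 1 of 6 at S2, against 18.1% and 16.8% of all genes. The median difference of the 6 at S3 was 0.07, against 0.01 for all genes.

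**Figure D2:**
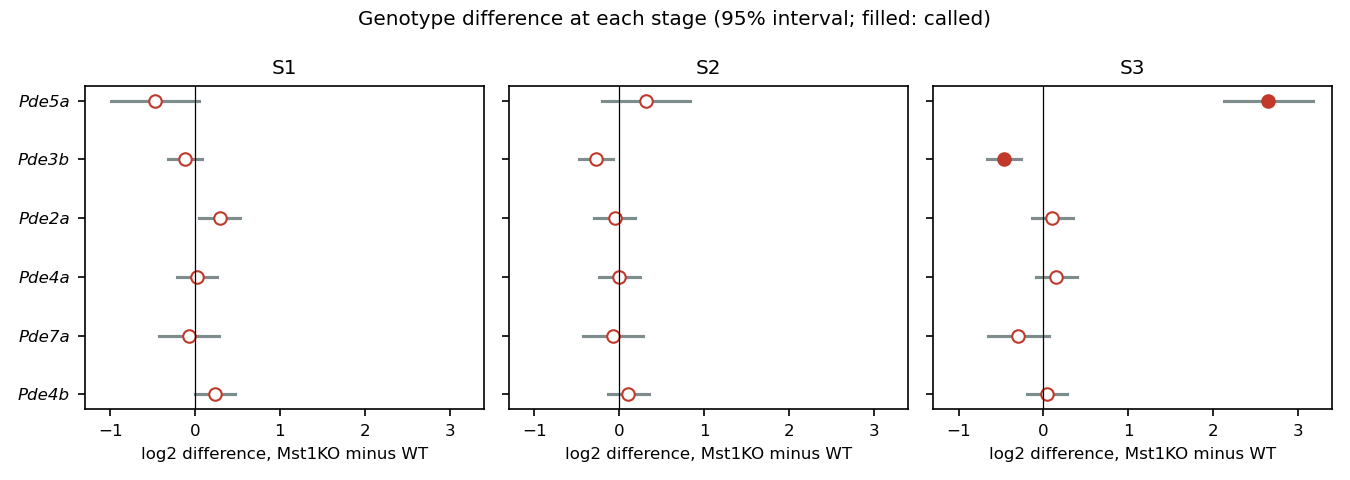
Log2 difference, Mst1KO minus WT (horizontal axis), for the 6 tested phosphodiesterases at S1, S2 and S3, with 95% intervals from the fit and filled points for genes called at an adjusted p under 0.05. The filled points are at S3, Pde5a at 2.65 and Pde3b at -0.47.

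Pde2a, Pde4a and Pde7a formed a different pattern, with the highest levels at S3 in both genotypes. Pde4a, a cAMP-specific enzyme, read 7.26, 7.33 and 7.66 at S3 in Mst1KO, against 6.20, 6.25 and 6.40 at S2, and rose by 1.13 ± 0.11 or 2.19-fold (limma adjusted p = 2.41e-06). In WT the S3 arrays read 7.13, 7.28 and 7.38, against 6.21, 6.31 and 6.33 at S2, a rise of 0.98 ± 0.11 or 1.98-fold (adjusted p = 6.16e-06). The S3 arrays of both genotypes were above all S2 arrays. At S1 the means were 6.04 ± 0.13 in Mst1KO and 6.01 ± 0.10 in WT, separate from S2 in each genotype but not called (adjusted p = 0.225 in Mst1KO and 0.227 in WT). Klrk1, the NKG2D receptor gene (r = 0.982), and Il10rb, an interleukin-10 receptor chain (0.980), followed Pde4a most closely over the 18 arrays.

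Pde7a, the high-affinity cAMP enzyme, also rose. Its S3 arrays read 8.31, 8.54 and 8.55 in Mst1KO, against 7.27, 7.46 and 7.73 at S2 (0.98 ± 0.17, 1.97-fold, limma adjusted p = 0.000597). In WT they read 8.58, 8.85 and 8.86, against 7.20, 7.67 and 7.80 at S2 (1.20 ± 0.17, 2.30-fold, adjusted p = 5.11e-05). Stages S1 and S2 overlapped in both genotypes, with S1 means of 7.12 ± 0.24 in Mst1KO and 7.20 ± 0.21 in WT. At S3 every Mst1KO array was below every WT array, without a call (-0.30 ± 0.17, 95% interval -0.65 to 0.06, adjusted p = 0.412). Mef2a (r = 0.973) and Sytl2 (0.972) followed it most closely.

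The other Pde7a probe set was dim, at or below 4.88 on every array and above its array's median on 1, and did not pass the filter. In a fit of all probe sets with 1 symbol it differed between S3 and S2 by 0.36 ± 0.21 in each genotype (adjusted p = 0.382 in Mst1KO and 0.358 in WT), so the rise of Pde7a rests on the brighter probe set.

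Pde2a, the cGMP-stimulated enzyme, read 9.52, 9.60 and 9.76 at S3 in Mst1KO, against 8.62, 8.81 and 8.89 at S2, and rose by 0.85 ± 0.11 or 1.80-fold (limma adjusted p = 5.16e-05). In WT it read 9.48, 9.49 and 9.60 at S3, against 8.73, 8.76 and 8.99 at S2, a rise of 0.70 ± 0.11 or 1.62-fold (adjusted p = 0.000234). At S1 the arrays read 8.84, 8.96 and 8.996 in Mst1KO, against 8.43, 8.65 and 8.84 in WT, which overlapped narrowly (0.29 ± 0.11, adjusted p = 0.336). S2 and S1 overlapped within each genotype. Pik3r5, a regulatory subunit of a phosphoinositide 3-kinase (r = 0.952), and Myo9b (0.948) followed Pde2a most closely.

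Between genotypes these 3 genes were not called at S3. The difference was 0.15 ± 0.11 for Pde4a (95% interval -0.09 to 0.39, adjusted p = 0.555) and 0.10 ± 0.11 for Pde2a (95% interval -0.14 to 0.34, adjusted p = 0.722), with overlapping arrays. Their S2 to S3 changes also did not pass the interaction test, with adjusted p = 0.782 for Pde2a and 0.792 for Pde4a and Pde7a. A missed threshold does not show that the genotypes are alike, and the Pde7a interval still holds a lower level in Mst1KO of up to 0.65.

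**Figure D3:**
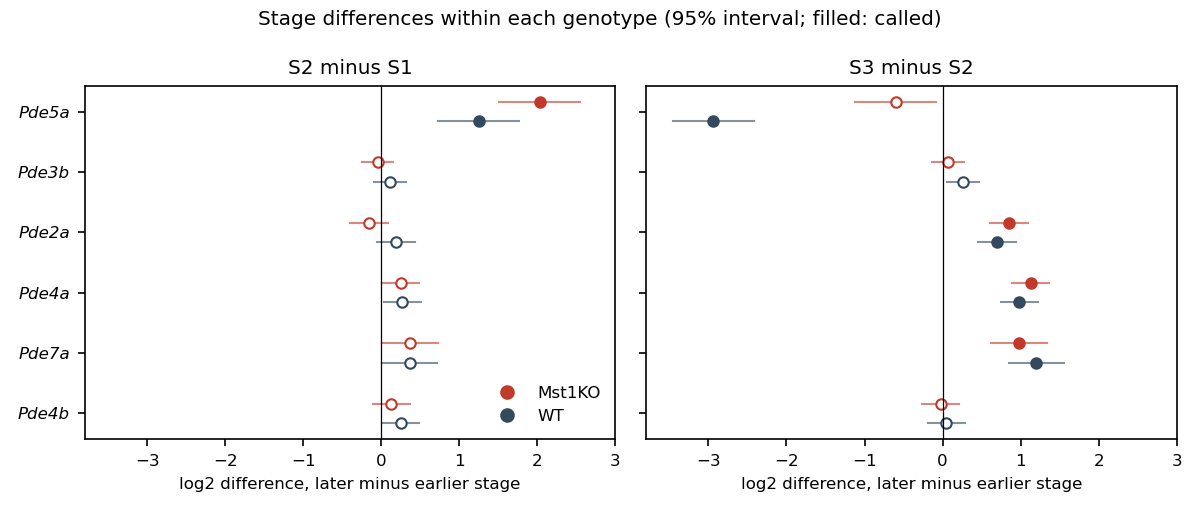
Log2 difference, later minus earlier stage (horizontal axis), for the 6 tested phosphodiesterases in Mst1KO and WT, with 95% intervals and filled points for genes called at an adjusted p under 0.05. From S2 to S3 Pde2a, Pde4a and Pde7a lie right of 0 in both genotypes, and Pde5a lies at -0.60 in Mst1KO and -2.94 in WT.

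From S2 to S3, 3 of 6 members were called in Mst1KO, where 17.2% of all genes were called. All 3 were higher (8.01% of all genes), a direction whose share over all genes moved from 1044 of 2240 calls to 880 of 2443 with quantile normalization repeated. In WT 4 of 6 were called (23.6% of all genes), 3 of them higher (10.4%) and Pde5a lower (13.2%). The stages did not overlap for 4 of 6 members in Mst1KO, against 36.3% of all genes, and for 5 of 6 in WT, against 34.9%. From S1 to S2, Pde5a was the 1 member called, and higher, in each genotype, where 6.67% of all genes were called in Mst1KO (3.77% higher) and 3.84% in WT (2.7% higher). The arrays of these stages did not overlap for 2 of 6 members in each genotype, against 25.7% of all genes in Mst1KO and 19.9% in WT. Marker lists of other cells moved in both directions over these stages. The macrophage and dendritic cell sum was higher at S3 than at S2, at 57.3 to 61.2 against 54.2 to 55.6 in Mst1KO and 55.6 to 57.0 against 50.9 to 51.9 in WT, with 5 of 8 tested markers called higher in Mst1KO and 4 of 8 in WT. The 6 CD8 and immature thymocyte markers summed to 30.6 to 31.4 at S3 against 28.0 to 30.4 at S2 in Mst1KO, and to 30.0 to 30.7 at S3 against 28.4 to 29.9 at S2 in WT, with Rag2 below the array median on all arrays. Of the 4 tested, limma called 2 higher at S3 in each genotype. In both, 1 was Cd24a, the gene of the CD24 that sorted cells lacked (0.74 ± 0.19 in Mst1KO and 0.82 ± 0.19 in WT, adjusted p = 0.0113 and 0.00405). Between genotypes 0 of 4 were called at any stage, although the S1 sums were separate (29.0 to 31.2 in Mst1KO, 28.1 to 28.5 in WT). The endothelial sum was lower at S3, at 26.1 to 26.4 against 26.9 to 27.8 at S2 in Mst1KO and 25.4 to 25.9 against 27.1 to 27.5 at S2 in WT, the direction of Pde5a, and 1 of 3 tested markers fell in each genotype, Pecam1, at -1.10 ± 0.16 in Mst1KO and -1.53 ± 0.16 in WT (limma adjusted p = 0.000131 and 2.59e-06). Of the other tested endothelial markers, Cdh5 was at -0.19 in Mst1KO and -0.31 in WT, and Kdr at -0.06 in Mst1KO and 0.20 in WT, without a call. What part the cells of these lists have in the phosphodiesterase levels was not tested.

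The annotated starts of Pde4a and Pde2a are shown because these genes moved together between S2 and S3, with capitals for motif letters found. The windows shown are those of the 8 for these genes that hold a searched motif: 2 of 3 for Pde4a and 1 of 5 for Pde2a. In Pde4a the window at chr9:21165464-21165763 holds GGAATG beginning 134 bases before the start, and that at chr9:21183851-21184150 holds CGTCA, the reverse complement of TGACG, 50 bases before it. In Pde2a the window at chr7:101450270-101450569 holds CGTCA 14 bases past the start. All are plus strand, GRCm38.p6, from RefSeq. Of the 32851 windows, 14.7% hold GGAATG, 20.8% TGACG, 1.79% TGACGTCA and 3.98% GGTGTGA on either strand. None of the 14 member windows holds TGACGTCA or GGTGTGA. The shorter core is not particular to these genes: a window of Pde4b, which had no called difference, holds CGTCA 34 bases before the start (chr4:102421305-102421604, not shown). These matches describe letters only, and a probe set does not tell which start was used.
Pde4a, chr9:21165464-21165763: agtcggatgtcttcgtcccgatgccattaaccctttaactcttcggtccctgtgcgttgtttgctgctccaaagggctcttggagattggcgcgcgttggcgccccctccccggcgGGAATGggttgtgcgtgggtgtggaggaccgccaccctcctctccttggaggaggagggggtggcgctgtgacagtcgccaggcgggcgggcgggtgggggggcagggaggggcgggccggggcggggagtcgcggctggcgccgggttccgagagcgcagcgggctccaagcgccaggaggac
Pde4a, chr9:21183851-21184150: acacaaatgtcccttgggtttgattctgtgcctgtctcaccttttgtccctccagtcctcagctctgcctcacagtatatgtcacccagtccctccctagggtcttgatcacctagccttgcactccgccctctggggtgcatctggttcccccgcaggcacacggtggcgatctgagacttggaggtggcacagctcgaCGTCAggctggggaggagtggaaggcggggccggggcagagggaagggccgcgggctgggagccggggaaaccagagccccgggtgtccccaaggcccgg
Pde2a, chr7:101450270-101450569: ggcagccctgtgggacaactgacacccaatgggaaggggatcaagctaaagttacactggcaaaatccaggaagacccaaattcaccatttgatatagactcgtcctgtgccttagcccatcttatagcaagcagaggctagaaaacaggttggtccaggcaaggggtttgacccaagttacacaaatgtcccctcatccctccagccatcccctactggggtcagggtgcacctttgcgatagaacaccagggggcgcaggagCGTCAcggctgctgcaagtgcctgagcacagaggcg

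Pde4b and Pde4d, the other cAMP-specific PDE4 genes, showed no called difference. Pde4b read 5.66, 5.79 and 5.80 at S3 in Mst1KO, against 5.59, 5.71 and 5.83 in WT, and its group means lay between 5.41 and 5.77. Every neighbour in the order of its 6 groups overlapped, and its largest difference, S2 against S1 in WT, was 0.25 ± 0.11 (limma adjusted p = 0.26). Rara, a retinoic acid receptor gene (r = 0.795), and Plaat3 (0.788) were its closest genes. Pde4d was the member that did not pass the filter, at 3.51 to 3.996 over the 18 arrays and below the median of each. Without a filter, its difference at S3 was -0.18 ± 0.11 between Mst1KO and WT (adjusted p = 0.551, 22180 genes tested).

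The array held probe sets for all 21 class I phosphodiesterase genes, of which 10 passed the filter, 6 of the members and 4 of 14 others. Among the others, the calcium and calmodulin dependent enzyme gene Pde1b was higher in Mst1KO at S3, with means of 7.28 in Mst1KO and 6.57 in WT (0.71 ± 0.13, 1.64-fold, limma adjusted p = 0.00695). At S1 its arrays were also separate and higher in Mst1KO, without a call (means 6.92 in Mst1KO and 6.58 in WT), and at S2 they overlapped. Pde1b also rose from S2 to S3 in Mst1KO (0.67 ± 0.13, adjusted p = 0.00204) and was at 0.24 ± 0.13 in WT (adjusted p = 0.23), while the difference between these changes was not called (0.44 ± 0.19, adjusted p = 0.391). Pde4c fell from S2 to S3 in both genotypes, at -0.39 ± 0.10 in Mst1KO and -0.35 ± 0.10 in WT (adjusted p = 0.0112 and 0.0151). The Pde4c call was lost in Mst1KO without Mst1KO S3 replicate 1 or Mst1KO S2 replicate 2 (adjusted p up to 0.0662) and in WT without WT S3 replicate 2 or WT S2 replicate 3 (up to 0.0676). Both Pde4c calls, and the Pde1b call between genotypes, were also lost with only the groups compared in the fit and with an added threshold of 1.5-fold. Of the remaining genes of the 4, named to complete them after their values were seen, Pde11a, an enzyme for both messengers, differed by -0.71 ± 0.28 between Mst1KO and WT at S3 without a call (adjusted p = 0.198), and Pde8a was not called in any comparison, its S3 difference being -0.16 ± 0.20 (adjusted p = 0.752).

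Of the other listed genes that make, sense or act on cyclic nucleotide signals, 2 were called between genotypes at S3 and 1 at S2, where 3.4% and 1.17% of all genes were called. Ptger4, a prostaglandin E2 receptor that raises cAMP, was lower in Mst1KO at S3, with arrays at 9.23, 9.31 and 9.35 in Mst1KO, against 9.76, 9.80 and 9.84 in WT (-0.50 ± 0.11, limma adjusted p = 0.0175), and was the 1 of 5 tested genes of Gs proteins and their receptors called there. Ezr, the membrane linker ezrin, an anchor of protein kinase A, was higher in Mst1KO at S3 (0.46 ± 0.10, adjusted p = 0.0183), and Akap6, another anchor, was lower at S2 (-0.79 ± 0.18, adjusted p = 0.0371). Each was the 1 of 11 tested anchoring genes called in its comparison. The Akap6 arrays were also separate at S1, without a call (means 5.23 in Mst1KO and 6.06 in WT). So were those of Ezr at S1 (9.47 and 9.26) and of Ptger4 at S2 (8.75 and 9.18). Arrays did not overlap for 18.1% of all genes at S1 and 16.8% at S2. At the remaining stage of each of these 3 genes the arrays overlapped. Of 18 fits without an array, the call of Ptger4 was lost in 3 (WT S3 replicate 1, Mst1KO S3 replicates 1 and 2) and that of Ezr in 3 (WT S3 replicates 1 and 3, Mst1KO S3 replicate 3). That of Akap6 was lost in 6 (WT S2 replicates 2 and 3, Mst1KO S2 replicates 1 and 3, Mst1KO S3 replicates 2 and 3), with adjusted p up to 0.149. The Akap6 call was also lost without a filter, with array weights and with only the groups compared in the fit, and that of Ezr with only the groups compared. Each of these calls was lost with an added threshold of 1.5-fold. The lists of 3 adenylyl cyclases, 3 guanylyl cyclases, 2 phosphodiesterase accessory genes, 7 cAMP and cGMP effectors and 8 CREB family genes and coactivators tested had 0 called at S3 with limma. At an unadjusted p under 0.05 they had 0, 0, 0, 1 and 2.

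Calls were more frequent between S2 and S3, as they were over all genes, of which 17.2% were called in Mst1KO and 23.6% in WT. The adenylyl cyclase gene Adcy6 fell from S2 to S3 in both genotypes, at 5.66 ± 0.47 against 7.30 ± 0.08 in Mst1KO (-1.64 ± 0.23, limma adjusted p = 7.4e-05) and 5.22 ± 0.34 against 7.42 ± 0.40 in WT (-2.19 ± 0.23, adjusted p = 2.15e-06), the 1 of 3 cyclases called. The prostacyclin receptor gene Ptgir also fell, at -0.99 ± 0.16 in Mst1KO and -1.64 ± 0.16 in WT, while Ptger4 rose by 0.55 ± 0.11 in Mst1KO and 0.62 ± 0.11 in WT. Of 11 anchoring genes, 3 fell and 1 rose in Mst1KO and 2 fell and 2 rose in WT, where 17.2% of all genes were called in Mst1KO and 23.6% in WT. Of 18 fits without an array, the fall of Akap11 in Mst1KO was lost in 4 (Mst1KO S2 replicates 1 and 3, Mst1KO S3 replicates 1 and 2) and the rise of Akap9 in WT in 5 (WT S2 replicates 2 and 3, WT S3 replicates 1, 2 and 3), so that these counts become 2 falls in Mst1KO and 1 rise in WT. Both calls were also lost with only the groups compared in the fit and with an added threshold of 1.5-fold. The Akap9 call was further lost without a filter, with median centring and with array weights. Akap6 fell in both, at -1.05 ± 0.18 in Mst1KO and -2.01 ± 0.18 in WT, although its S3 arrays, at 4.15 or lower, lay under every array median and leave the size of the fall uncertain. Akap1 also fell, at -0.92 ± 0.13 in Mst1KO and -0.80 ± 0.13 in WT. Akap13 rose by 0.46 ± 0.08 in Mst1KO and 0.40 ± 0.08 in WT. Among 7 effectors the 1 called in WT was Prkar2b, a regulatory subunit of protein kinase A, whose S2 and S3 arrays all lay under the array medians, at 4.55 or lower, so no size is given for it. Prkar2b passed the filter through S1 arrays alone, outside this comparison, and was tested in 15 of the 18 fits without an array. The cAMP-inducible factor gene Crem (0.34 ± 0.10, adjusted p = 0.021) and the coactivator gene Ep300 (0.27 ± 0.08, adjusted p = 0.022) rose in WT. They were 2 of 8 in their list, where 23.6% of all genes were called. Of 18 fits without an array, Crem lost its call in 2 (WT S3 replicate 1, WT S2 replicate 2) and Ep300 in 4 (WT S2 and WT S3, replicates 2 and 3 of each). Both calls were also lost with median centring, with only the groups compared in the fit and with an added threshold of 1.5-fold. None of these genes passed the interaction test from S2 to S3.

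**Figure D4:**
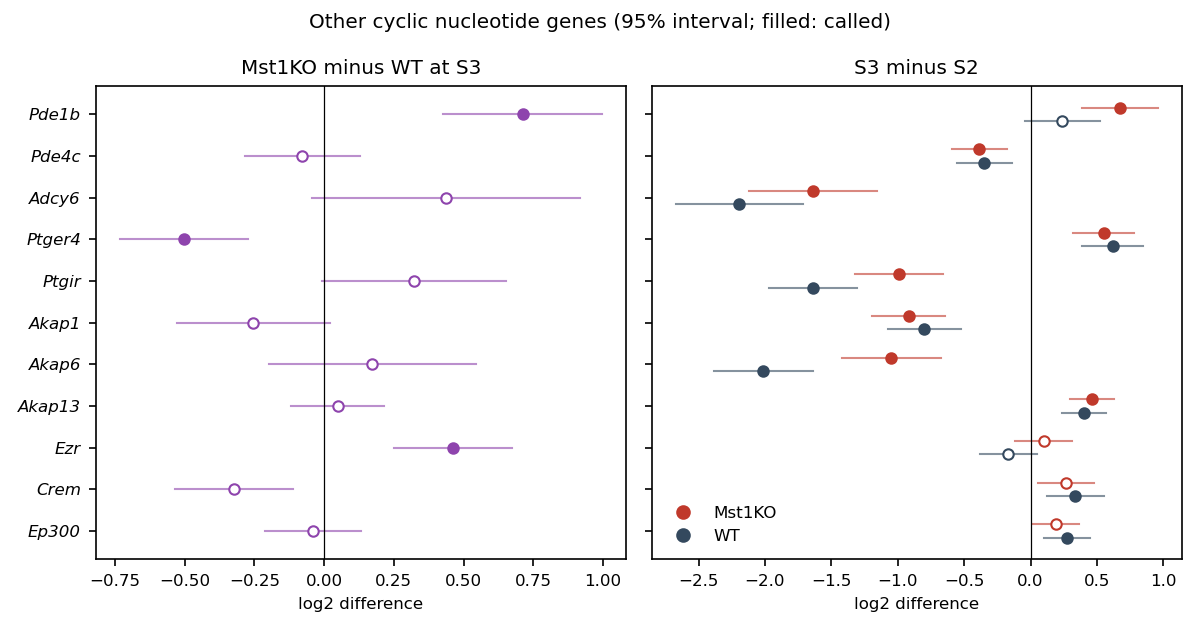
Log2 differences (horizontal axes) of 11 other genes of cyclic nucleotide signalling, Mst1KO minus WT at S3 on the left and S3 minus S2 in Mst1KO and WT on the right, with 95% intervals and filled points for genes called at an adjusted p under 0.05. On the left Pde1b and Ezr are called higher and Ptger4 lower, and on the right Adcy6 falls in both genotypes.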

How the data were processed

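Each of 18 arrays has 1 deposited log2 value per probe set. The submitters' processing notes name Affymetrix Expression Console 1.1 and RMA, which corrects background, brings arrays to a common distribution and summarises probes, and can compress differences among dim genes. No annotation build is stated in the labels. Of 41345 probe sets, 23521 carried 1 symbol. Of these, 13702 that exceeded the median of the array in 3 or more arrays were kept, and the brightest stood for each gene, which left 13034 genes. A mean for each of 6 groups was fitted with limma 3.58.1 in R 4.3.3, with Benjamini-Hochberg adjustment within each of 9 comparisons. No batch is named in the labels. Members, lists and motifs were chosen with earlier results of these data known. All members were named, with listed genes called between genotypes or with the lowest p between stages, and the genes with the highest r. The fit was tested on simulated data. Precision is limited by the 3 arrays a group. Alternatives were other filters, scalings, variance models, probe set rules, a 1.5-fold threshold, smaller fits, a replicate block and leaving out arrays. Figures were drawn with matplotlib 3.10.9.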

Additional observations from a re-analysis of the deposited data

Results flagged for a closer look

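The S2 to S3 change of Pde5a differed between the genotypes by an interaction test, 2.34 ± 0.35 higher in Mst1KO than in WT (limma adjusted p = 0.00636, n = 3 arrays in each of the 4 groups). Leaving out each of 18 arrays in turn gave 1.96 to 2.62, the lowest without WT S3 replicate 3. No range-based test of single outlying arrays was run on groups of 3.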

How the results depend on the processing

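Over 28 alternative fits, 10 settings and 18 fits without an array, the number of members called stayed within 1.5 times the value reported in 246 of 252 cases. This total includes comparisons with 0 members called, and a shift from 3 to 4 counts as unchanged, so it says little about single calls. An added threshold of 1.5-fold left 1 member called between Mst1KO and WT at S3, 0 from S1 to S2 in WT, 1 from S2 to S3 in Mst1KO and 0 in the interaction from S2 to S3, where the higher bar is built into the setting. With replicate number as a block, 2 members were called from S1 to S2 in Mst1KO, Pde7a being added, and no other count moved by over 1.5 times. The numbers are not stated to pair samples: same-numbered arrays of a genotype correlated at -0.05 to 0.21 in their deviations from group means, over 0.1 in 3 of 18 pairs, though 17 of 18 arrays correlated best with their own number. Without single arrays, 1 to 2 members were called between Mst1KO and WT at S3, and the value of 1 was without Mst1KO S3 replicate 2, where Pde3b was lost. No called difference of a member changed sign in these fits. With the filter set at the 75th percentile Pde4b was not tested. Over all genes, the 443 calls at S3 between genotypes ranged from 38 with the added threshold to 563 with a variance trend, with 199 to 452 when single arrays were left out, the lowest without Mst1KO S3 replicate 3. With quantile normalization repeated the interaction from S2 to S3 had 31 higher and 20 lower calls, against 34 and 14 as reported. Signal over background limits values below the array median, among them Pde4d on all arrays, Pde5a in WT S3, Akap6 at S3 in both genotypes and Prkar2b in WT at S2 and S3.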
